A study of Sus scrofa with 15 samples.

Results

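The comparison described here is that of Tg1, a plasmid for mutant human PKD2 (c.A1532T/p.D511V, tagged with FLAG), with NC, the empty plasmid. Its members were chosen by the sample labels alone and are the 3 libraries of Tg1 and the 3 of NC, that is 6 of the 15 libraries of the series. All were made from LLC-PK1, an established line of pig kidney cells that is described as proximal tubule epithelium. The cells were grown in 6-well plates and transfected with 3 µg of plasmid, and RNA was isolated 48 h later. The other plasmids carried wild-type PKD2 (WT), mutant Tg2 (p.L656W) or mutant Tg3 (p.R742X), and every plasmid, NC included, shared the same floxP-neo-pH11 backbone. PKD2 was driven by the CAG promoter, which is active in most cell types, in cells that kept their own PKD2 genes, so the model is one of transient overexpression in a single line and not of a mutation at the cells' own locus. The share of cells that took up each plasmid was not given. Transcripts of pig PKD1, pig PKD2 and the transgene were not analysed here, so the labels could not be checked against the level of the transgene. The replicates were wells, and nothing says that they came from separate cultures, so the p-values measure the spread between these wells, which may be technical.

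PKD2 encodes polycystin-2, a cation channel of the primary cilium and the endoplasmic reticulum that pairs with polycystin-1. Mutations in either gene cause autosomal dominant polycystic kidney disease, in which tubules widen into fluid-filled cysts. The pathways most often studied in cyst-lining cells are those of calcium and cAMP, growth factor receptors, Wnt and cell polarity, and the members of these pathways were therefore looked up one by one.

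Total counts were 22107982 to 26132196 per library in NC and 22700986 to 25736040 in Tg1, so depth did not separate the groups. Of the 16660 genes with counts, 11553 were tested, namely those with a mean level of 2 or more over the 15 libraries in CPM, a gene's counts scaled to the total of its library. The labelled cell type was checked against its markers. Of 21 tested proximal tubule markers, the brush border scaffold PDZK1 lay at 375 to 418 CPM in NC and 338 to 386 in Tg1. The water channel AQP1 was at 241 to 312 and 260 to 308. The proximal tubule markers MME, SLC22A8 and GATM fell under the filter and were not tested. They stayed at or below 0.192, 0.983 and 0.236 CPM in both groups. The keratin gene KRT8 was at 2135 CPM or more in every library of both groups. Several defining markers of other cells were at or near 0, with PTPRC of leukocytes at most 0.0434 CPM, KDR of endothelium at most 0.0381 CPM and LUM of fibroblasts at 0. Others were not near 0, as the T cell gene CD3E and the macrophage gene AIF1 were at 19.0 to 22.8 and 19.9 to 22.5 CPM, and the distal nephron genes ATP6V1B1 and AVPR2 at 213 to 244 and 25.1 to 30.6 CPM, over both groups. One collagen gene, COL1A2, was high in all 6 libraries (926 to 965 CPM in NC and 876 to 996 in Tg1), while its partner COL1A1 stayed below 1 CPM. Over all 15 libraries the first principal component (54.3% of the variance) mixed the wells of Tg1 and NC, whereas on the second (7.8%) the Tg1 libraries lay between -11.88 and -4.29 and all the others between -2.7 and 6.03. No proximal tubule or epithelial marker was a differentially expressed gene (DEG) by edgeR at the thresholds given next, and DESeq2 called 3 and 0. At an unadjusted p below 0.05, 5 of 21 proximal tubule markers were lower and 2 of 6 epithelial markers higher. Of all tested genes, 11.1% were lower and 8.8% higher at that level. Groups did not overlap for 5 of the 21, all lower in Tg1, against 14.8% of all tested genes in that direction. The endocytic receptors LRP2 and CUBN were among these 5. LRP2 was at 301, 295 and 302 CPM in NC and at 253, 228 and 250 CPM in Tg1 (log2 fold change -0.30, edgeR adjusted p = 0.0756). CUBN was at 87.6 to 98.1 CPM in NC and at 71.0 to 76.8 CPM in Tg1 (log2 fold change -0.32, edgeR adjusted p = 0.0597).

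Among the genes that passed the test, most were lower in Tg1 than in NC. A gene was taken as a DEG when its edgeR adjusted p did not exceed 0.05 and its log2 fold change was at least 0.26 in size. By this rule 138 genes were DEGs (1.19% of those tested), of which 117 fell in Tg1 (1.01%) and 21 rose (0.182%). Changes were small, as the DEGs that fell had log2 fold changes from -1.02 to -0.26 with a median of -0.36, and those that rose had 0.27 to 0.53 with a median of 0.34. All 138 DEGs had Tg1 libraries that did not overlap with NC, which also held for 11.9% of all tested genes in the higher direction and 14.8% in the lower. At an unadjusted p below 0.05, 8.8% of all tested genes were higher in Tg1 and 11.1% lower. The number of DEGs depended on every one of the 6 libraries. It was 19, 83 and 17 without NC replicates 1, 2 and 3, and 55, 16 and 77 without Tg1 replicates 1, 2 and 3. Of the DEGs that fell, 10 were called in all 6 of these fits and 46 in none, and of those that rose, 1 was called in all and 6 in none.

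By adjusted p, the leading DEGs among those named here were a vesicle gene, a cyclic AMP gene and a Wnt gene, each lower in Tg1. DMXL1, which helps assemble the proton pump of endosomes and lysosomes, read 122, 114 and 117 CPM in the NC libraries and 85.4, 91.9 and 95.1 CPM in the Tg1 libraries. The highest Tg1 library was thus well below the lowest NC library, and the gene fell by 0.38 on the log2 scale (SE 0.04, edgeR adjusted p = 0.00454). PRKAR2A, a regulatory subunit of protein kinase A, went from 79.0, 75.1 and 76.9 CPM in NC to 57.9, 61.4 and 60.1 CPM in Tg1 (log2 fold change -0.36, SE 0.04, edgeR adjusted p = 0.00454). LRP6, a Wnt co-receptor, went from 48, 42.6 and 45.1 CPM to 32.5, 34.3 and 36.4 CPM (log2 fold change -0.39, SE 0.05, edgeR adjusted p = 0.00518). For all of these genes, the adjusted p stayed below 0.05 whichever library was left out, with the highest values at 0.0341, 0.0341 and 0.0349.

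Further DEGs with small adjusted p had various functions. MICAL2, an enzyme that oxidises actin filaments, was at 36.8, 36.1 and 35.9 CPM in NC and at 24.8, 26.2 and 28.7 CPM in Tg1 (log2 fold change -0.45, SE 0.06, edgeR adjusted p = 0.00559). NFAT5, the transcription factor that answers to high tonicity in the kidney, was at 59.7, 54.0 and 59.1 CPM in NC and at 35.4, 40.6 and 37.2 CPM in Tg1, and no Tg1 well came near an NC well. Its log2 fold change was -0.61 (SE 0.09, edgeR adjusted p = 0.00682). CLOCK, a core transcription factor of the circadian rhythm, was at 101, 94.8 and 97.3 CPM in NC and at 78.7, 80.2 and 80.6 CPM in Tg1 (log2 fold change -0.29), with the Tg1 wells closer to one another than the NC wells were. PLK4, the kinase that starts centriole duplication, was at 48.1, 43.5 and 45.1 CPM in NC and at 36.8, 36.3 and 34.0 CPM in Tg1 (log2 fold change -0.35); the reference table gives the same identifier as HSPA4L, so its name is uncertain. PTAR1, which takes part in protein prenylation, was at 23.2, 20.8 and 21.9 CPM in NC and at 14.4, 15.8 and 16.9 CPM in Tg1 (log2 fold change -0.48). All of these were DEGs whichever of the 6 libraries was left out, as was the secreted protein gene WFDC2, the one gene that rose with this stability. WFDC2 went from 853, 846 and 870 CPM in NC to 1047, 1050 and 1005 CPM in Tg1 (log2 fold change 0.27, SE 0.04, edgeR adjusted p = 0.00682).

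Other DEGs depended more on single libraries. LPP, a scaffold of focal adhesions, was at 35.7, 30.7 and 30.4 CPM in NC and at 12.6, 18.8 and 19.7 CPM in Tg1. Its mean was 32.3 ± 2.99 CPM (SD, n = 3) in NC and 17.0 ± 3.84 in Tg1, and its log2 fold change was -0.92 (SE 0.14, edgeR adjusted p = 0.00897), lost without NC replicate 1 (edgeR adjusted p = 0.0579). TEAD1, the DNA-binding partner of YAP, was at 96.3, 92.8 and 95.8 CPM in NC and at 66.7, 65.6 and 72.7 CPM in Tg1 (log2 fold change -0.47), and missed the threshold without Tg1 replicate 2 (edgeR adjusted p = 0.0508). DCX, a microtubule binder best known from neurons, was at 65.0, 53.5 and 62.0 CPM in NC and at 33.5, 38.4 and 37.6 CPM in Tg1. Its log2 fold change was -0.72, but 1 of the 6 fits without a library (without NC replicate 2) called it. The exact permutation test of 3 libraries against 3 gave p = 0.1 for each gene named in these paragraphs, the smallest value it allows.

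**Figure D1:**
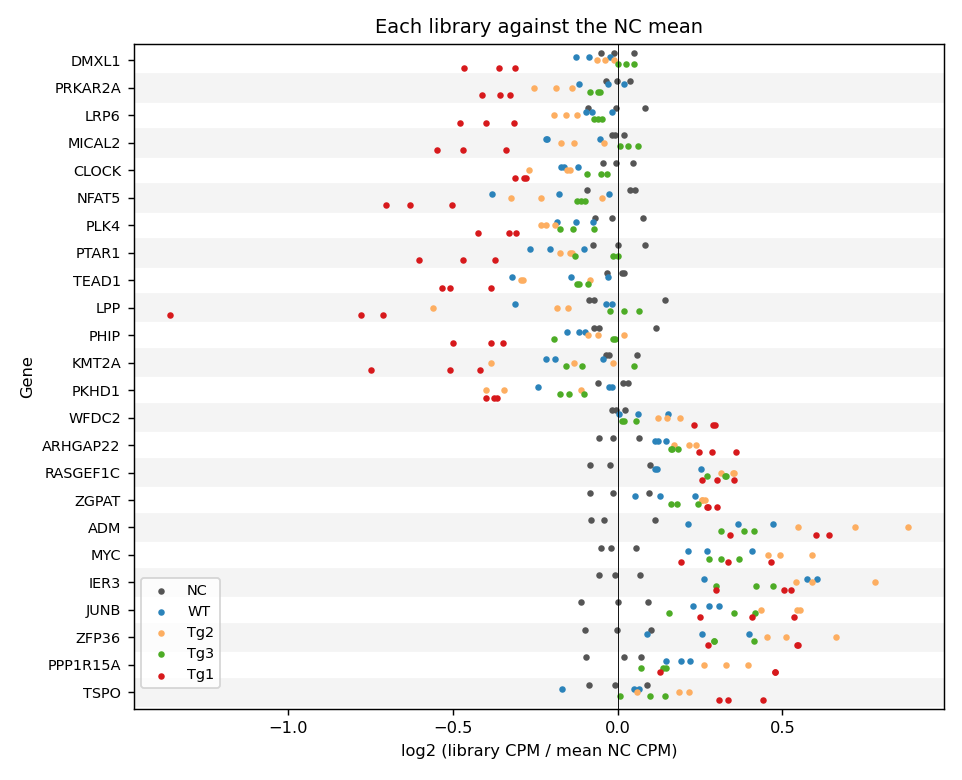
Each point is a library, placed by the log2 ratio of its CPM to the mean CPM of NC (x axis), for 24 genes of the comparison (y axis), with 3 libraries per plasmid in 5 colours. In DMXL1, PRKAR2A, LRP6 and NFAT5 the Tg1 points stand to the left of the points of all other plasmids. In IER3 and JUNB they lie among the points of WT, Tg2 and Tg3. The same holds in MYC except for Tg1 replicate 1 (258 CPM), which stands to the left of those points.

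The genes that fell in Tg1 were long. A gene's span was taken as the genomic distance from its start to its end in RefSeq, introns included, which was found for 9611 of the 11553 tested genes (83.2%), with a median of 29.5 kb. Of the 117 DEGs that fell, 95 had a span, and all 95 were longer than that median. They include PLK4, an identifier with the other symbol HSPA4L. Its span of 56.1 kb was looked up under HSPA4L before PLK4, so it may not be the length of PLK4. Their shortest span was 33.0 kb, their median 140 kb, and 64 of them (67.4%) were longer than 100 kb, against 17.0% of all tested genes. The DEGs that rose were short, with a median of 8.75 kb over 20 genes and 4 above the median of all genes. The median expression level went from 33.2 CPM in the shortest decile of span to 45.6 CPM in the eighth and was 36.1 CPM in the longest. It was 42.4 CPM for the DEGs that fell and 90.6 CPM for those that rose, against 36.5 CPM for all tested genes. A part of expression level in the span pattern was not tested.

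The gradient extended to genes that were not DEGs. When the genes were divided into deciles by span, the median log2 fold change of Tg1 against NC was 0.071 in the shortest decile, crossed 0 between the fifth and the sixth, and was -0.093 in the longest, with 44 of the DEGs that fell in the longest decile and 0 in the 5 shortest. Each Tg1 library showed it. Relative to the mean of all 15 libraries, the median gene of the longest decile minus that of the shortest was -0.141, -0.104 and -0.064 on the log2 scale in Tg1 replicates 1, 2 and 3, and 0.049, 0.068 and 0.074 in the NC replicates. The 9 libraries of the other plasmids lay between -0.036 and 0.058, so that the Tg1 libraries had the lowest values of all 15 and NC replicates 2 and 3 the highest. An exact permutation test of Tg1 against NC, two-sided, gave p = 0.1, the smallest possible.

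The same gradient was present against the other plasmids. From the shortest to the longest decile, the median log2 fold change of Tg1 ran from 0.06 to -0.075 against WT, from 0.048 to -0.05 against Tg2 and from 0.057 to -0.065 against Tg3. These comparisons share the Tg1 libraries and are not independent of one another. A fit that removed a smooth trend over span from each library left 20 DEGs against NC (16 lower and 4 higher) of the 116 found in the same 9611 genes without it, and 18 of the 20 were among the 138. Those that fell in both fits included DMXL1, PRKAR2A, LRP6, MICAL2, NFAT5, PTAR1, PLK4, TEAD1, LPP, AFF4, KMT2A and PHIP, and those that rose were ARHGAP22, RASGEF1C and SLC25A25. The offset also removes any change that long genes have in common. What span moves with in these wells was not tested.

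**Figure D2:**
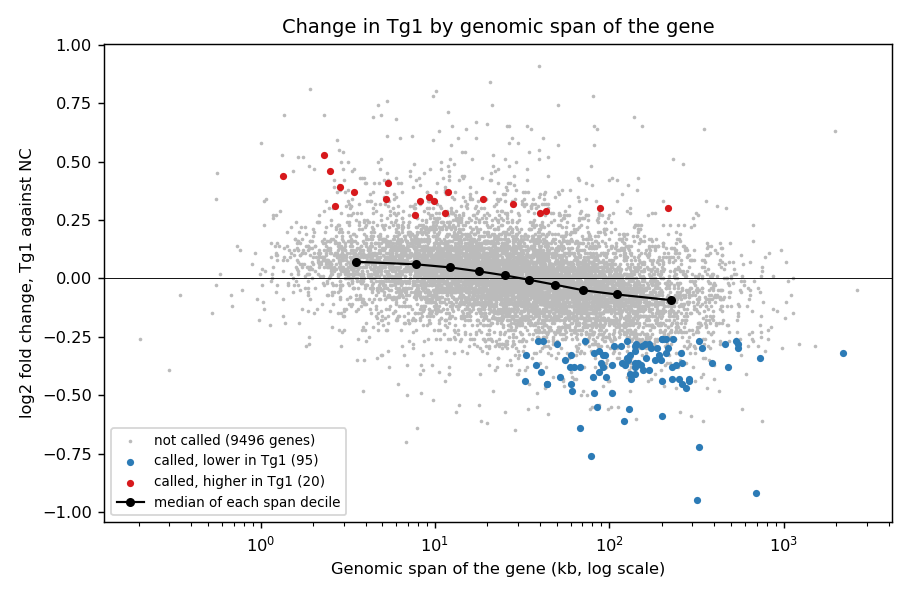
Each point is a gene with a known span, with the genomic span in kb on a log axis (x) and the log2 fold change of Tg1 against NC (y). The 95 genes that fell (blue) all lie to the right of 33.0 kb or on it, the 20 that rose (red) lie mostly at short spans, and the black line of decile medians falls from 0.071 to -0.093.

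**Figure D3:**
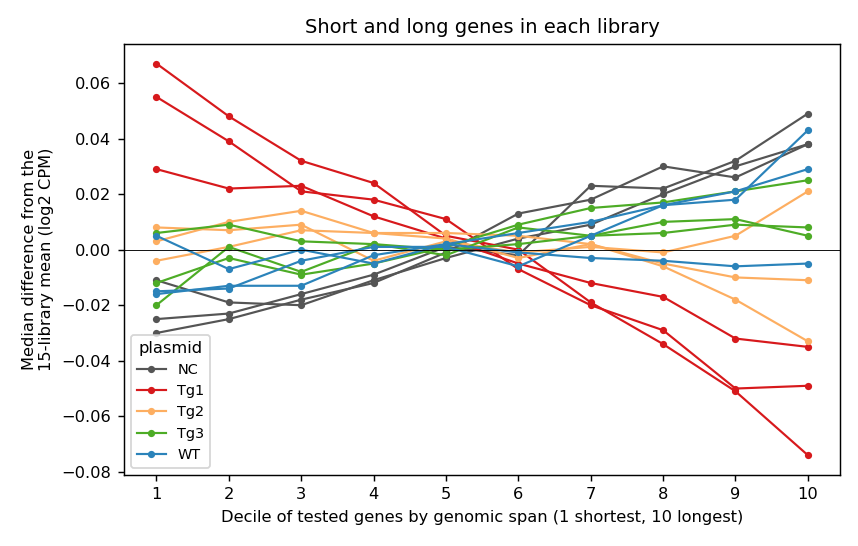
Each line is a library, coloured by plasmid, with the deciles of genes from shortest to longest span on the x axis and the median difference from the 15-library mean in log2 CPM on the y axis. The 3 Tg1 lines run downward and end between -0.035 and -0.074, and the 3 NC lines run upward and end between 0.038 and 0.049; one Tg2 line ends at -0.033.

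The changes were then followed through lists of genes by function. The lists were drawn up with earlier results of these libraries known, so their counts are a description and no independent evidence of direction. Over all tested genes 1.19% were DEGs, 1.01% lower and 0.182% higher. These levels differ with span. The share that fell was 0% in decile 1 of span, 2.83% in decile 9 and 4.55% in decile 10, and the share that rose was 0.834% in decile 1. Counts in lists of long or short genes are to be read with this in mind. Genes of endosomes, lysosomes and vesicle transport had the highest share of DEGs among these lists (29.7%). Of 37 tested, 11 fell and 0 rose, with a median log2 fold change of -0.24 against 0.003 over all tested genes, and 24 had an unadjusted p below 0.05 in the lower direction. Besides DMXL1 they included its paralogue DMXL2, the chloride transporter CLCN6, the lipid transfer proteins VPS13B and VPS13C, the lysosome trafficking regulator LYST, LMBRD2, PDZD8, DENND5B and HECTD4. VPS13C was at 62.5, 55.5 and 54.0 CPM in NC and at 45.7, 44.1 and 50.1 CPM in Tg1 (log2 fold change -0.30). LYST was at 11.8, 7.5 and 9.08 CPM in NC and at 6.04, 6.25 and 6.48 CPM in Tg1 (log2 fold change -0.59). The median span of the list was 96.6 kb. With the span offset 1 of its members remained a DEG and its median was -0.17, and without single libraries the list held 1 to 4 DEGs.

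Chromatin regulators fell in part. Of 65 tested, 14 (21.5%) fell and 0 rose, with a median log2 fold change of -0.13, a median span of 94 kb and 33 members lower at an unadjusted p below 0.05. They included the histone methyltransferase genes KMT2A, KMT2C and ASH1L, their relative KMT2E, the chromodomain genes CHD6 and CHD9, and the elongation factor gene AFF4. KMT2A was at 55.7, 56.1 and 59.5 CPM in NC and at 34.0, 40.1 and 42.7 CPM in Tg1 (log2 fold change -0.55). PHIP, which reads histone marks through bromodomains, was at 42.6, 37.4 and 37.8 CPM in NC and at 27.8, 30.1 and 30.9 CPM in Tg1 (log2 fold change -0.41). ASH1L was at 114, 118 and 120 CPM in NC and at 92.1, 95.1 and 98.3 CPM in Tg1 (log2 fold change -0.30). In the fits without a library 0 to 8 of the list were DEGs, and with the span offset 3.

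Genes of the actin cytoskeleton and adhesion gave 10 DEGs that fell and 1 that rose of 48 tested, with a median of -0.12 and the longest median span of the lists named here (136 kb). Besides LPP and MICAL2, those that fell were the kinase gene ROCK2, the integrin gene ITGA2, the cadherin gene CDH6, the phosphatase genes PTPRD and PTPN14, and SH3PXD2A, RASAL2 and PHACTR2. Of 18 genes of the YAP and TEAD list, TEAD1 and PTPN14 fell and 0 rose. The log2 fold changes of that list were split, with 9 above 0 and 9 below. DESeq2 called 1 of its genes higher and 2 lower. Its summed level was 2663 to 2828 CPM in NC and 2774 to 3295 CPM in Tg1, and it held 0 to 2 DEGs without single libraries. PTPN14, which restrains YAP, was at 66.3, 56.9 and 65.0 CPM in NC and at 43.0, 45.7 and 51.4 CPM in Tg1. The gene of the actin and adhesion list that rose was ARHGAP22, a Rac inactivator with a span of 218 kb. ARHGAP22 was at 29.2, 27.6 and 26.8 CPM in NC and 35.8, 33.1 and 34.0 CPM in Tg1 (log2 fold change 0.30, SE 0.05, edgeR adjusted p = 0.00897). It ran against the span gradient and was larger with the offset, at 0.39. Without single libraries the actin and adhesion list held 2 to 7 DEGs.

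In the genes of centrioles, spindle and cytokinesis, 5 of 35 fell and 0 rose, and the median was -0.18 (23 lower at an unadjusted p below 0.05). They were PLK4, the spindle pole gene ASPM, the mitotic kinesin gene KIF20B, the hyaluronan receptor HMMR and CIP2A, an inhibitor of the phosphatase PP2A. KIF20B was at 56.5, 54.9 and 55.0 CPM in NC and at 47.1, 43.4 and 43.3 CPM in Tg1 (log2 fold change -0.32). With the span offset the median of the list stayed at -0.18, and 1 of its members, PLK4, remained a DEG. Without single libraries the list held 1 to 3, and only PLK4 was called in all 6 of these fits. The identifier of PLK4 has the other symbol HSPA4L, so its place in this list is uncertain.

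In the signalling lists a minority of members changed. Of 38 growth factor receptor and PI3K genes, 4 fell (10.5%: CBL, PIK3C2A, PHLPP2 and PLCE1) and 0 rose. Of 35 Wnt genes, 2 fell (5.71%: LRP6 and TNKS) and 0 rose. The median spans of these lists were 95.9 and 52.7 kb. At such spans, 2.83% (decile 9) and 0.622% (decile 7) of all genes fell. CBL, the ubiquitin ligase that takes activated receptors out of use, was at 47.1, 42.2 and 47.2 CPM in NC and at 32.4, 32.6 and 36.8 CPM in Tg1 (log2 fold change -0.42). PIK3C2A, a lipid kinase of endocytic vesicles, was at 66.0, 65.5 and 62.8 CPM in NC and at 49.0, 51.9 and 53.4 CPM in Tg1 (log2 fold change -0.33). Of the growth factor list, 0 to 3 members were DEGs without single libraries and 0 with the span offset. CBL was lost without Tg1 replicates 1 or 2 or NC replicates 1 or 3, and PLCE1 whichever library was left out. Of the Wnt list 1 or 2 remained without single libraries and 1, LRP6, with the offset. EGFR itself did not reach the fold-change threshold (log2 fold change -0.25, edgeR adjusted p = 0.0407). Of 40 genes of cAMP and calcium signalling 1 fell (2.5%), PRKAR2A. The median span of that list was 103 kb, and its share was near the 2.83% of decile 9. ITPR2, a calcium release channel of the endoplasmic reticulum, lay just outside the fold-change threshold at -0.26 (edgeR adjusted p = 0.0222). In the tonicity list of 9, with a median span of 92.9 kb, NFAT5 and the kinase gene WNK1 fell. WNK1 was a DEG in 1 of the 6 fits without a library and not with the offset. The solute carrier SLC12A2, a chloride entry route in cyst epithelium, had a log2 fold change of -0.14 (edgeR adjusted p = 0.309).

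The cystic kidney and cilium list had 3 genes that fell of 42 tested, with a median of -0.09. PKHD1, the gene of recessive polycystic kidney disease, was at 178, 167 and 176 CPM in NC and at 132, 134 and 135 CPM in Tg1 (log2 fold change -0.38, SE 0.07, edgeR adjusted p = 0.0217). Its replicates were tight and the groups did not overlap, yet only the fit without NC replicate 2 kept it as a DEG. GLIS3, a transcription factor mutated in a syndrome with cystic kidneys, was at 152, 138 and 156 CPM in NC and at 122, 122 and 124 CPM in Tg1 (log2 fold change -0.28). DYNC2H1, the motor of retrograde transport in cilia, was low throughout, at 6.07, 4.23 and 3.77 CPM in NC and 2.52, 2.24 and 2.49 CPM in Tg1 (log2 fold change -0.95), and was a DEG in none of the fits without a library. All of these genes are long, with spans of 478, 545 and 319 kb, and none was a DEG with the span offset.

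**Figure D4:**
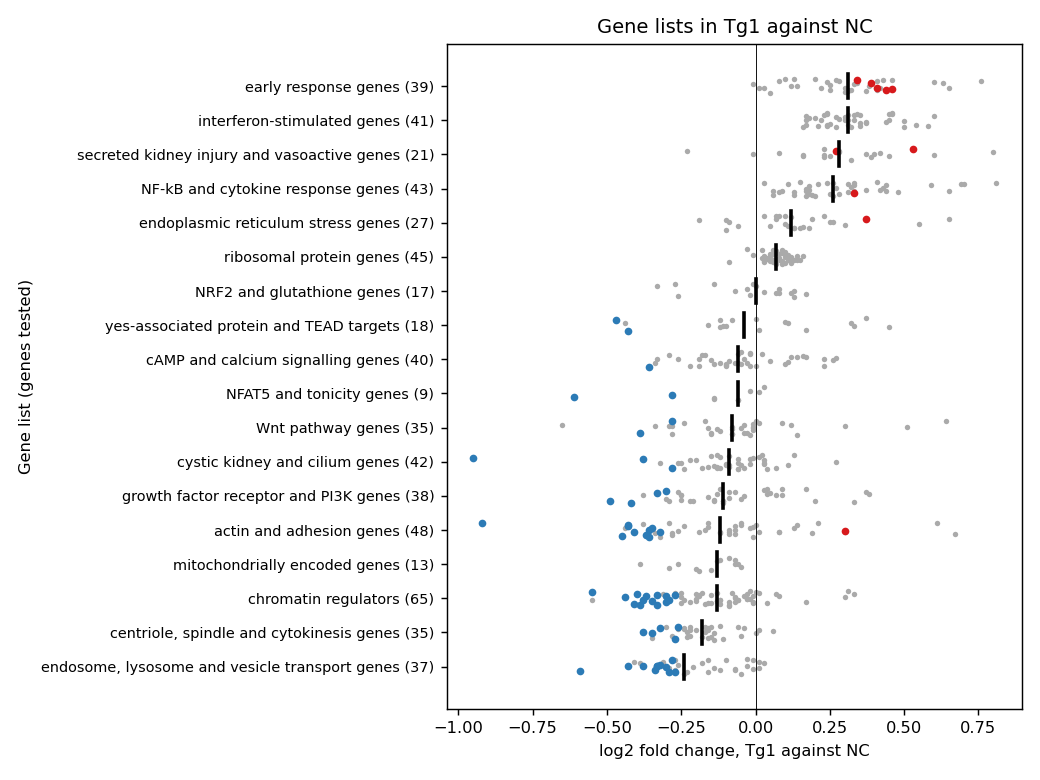
Each point is a tested gene, placed by its log2 fold change of Tg1 against NC (x axis) in its list (y axis, with the number of genes tested), blue where it fell, red where it rose and grey where it was not a DEG; black bars are list medians. Medians run from -0.24 in the endosome list to 0.31 in the early response list.

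Genes of the early response to stimulation, a list with a median span of 5.35 kb, made up 5 of the 21 DEGs that rose. Of 39 tested, these were the 5 that rose (MYC, IER3, IER2, JUNB and ZFP36) while 0 fell, the median log2 fold change was 0.31, and 21 were higher at an unadjusted p below 0.05. Their summed level was 6058, 6413 and 6700 CPM in the NC libraries and 6895, 8046 and 8285 CPM in the Tg1 libraries, with Tg1 replicate 1 close to NC. ZFP36, which destabilises cytokine messages, was at 438, 503 and 468 CPM in NC and at 567, 684 and 686 CPM in Tg1 (log2 fold change 0.46, SE 0.09, edgeR adjusted p = 0.0222). JUNB, a subunit of AP-1, was at 122, 113 and 130 CPM in NC and at 145, 162 and 177 CPM in Tg1. Replicate 1 was again the lowest Tg1 library, and without single libraries the list held 0 to 8 DEGs, with 0 after the span offset (list median then 0.28).

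Of 21 secreted kidney injury and vasoactive genes 2 rose, WFDC2 and ADM, and 0 fell, with a median of 0.28. ADM, the vasodilator peptide adrenomedullin, was at 66.0, 73.5 and 64.2 CPM in NC and at 86.0, 103 and 106 CPM in Tg1 (log2 fold change 0.53, SE 0.09, edgeR adjusted p = 0.0179). It was lost without Tg1 replicates 2 or 3 or NC replicates 1 or 3 (edgeR adjusted p up to 0.0921) and with the span offset (edgeR adjusted p = 0.0645). The list held 1 to 3 DEGs without single libraries and 0 with the offset. CLU, the chaperone clusterin and one of the most abundant genes of the list, was at 3650, 4296 and 3518 CPM in NC and at 4633, 5199 and 5147 CPM in Tg1, which did not overlap but missed the threshold (edgeR adjusted p = 0.0679). Tg1 replicate 1 was the lowest Tg1 library for both genes. PPP1R15A, which reverses the translational block of the stress response, was at 131, 147 and 142 CPM in NC and at 153, 195 and 195 CPM in Tg1 (log2 fold change 0.37), and was a DEG in 2 of the 6 fits without a library and not with the offset. It was the one DEG of 27 genes of endoplasmic reticulum stress, whose chaperone HSPA5 had a log2 fold change of 0.25 (edgeR adjusted p = 0.0188), just under the fold-change threshold. TSPO, a protein of the outer mitochondrial membrane, was at 17.2, 16.3 and 18.4 CPM in NC and at 21.8, 23.5 and 21.4 CPM in Tg1, but none of the fits without a library called it. Of 17 genes of the NRF2 and glutathione response none was a DEG (3 higher and 3 lower at an unadjusted p below 0.05, and 2 lower by DESeq2).

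Inflammatory and interferon genes had list medians above 0 in Tg1, but few of them passed the test. Of 43 genes of the NF-kB and cytokine response, 1 rose, ZC3H12A, an RNase that limits cytokine messages. It was a DEG in 1 of the 6 fits without a library and not with the span offset, and DESeq2 called 4 genes of the list. All 43 had log2 fold changes above 0 (median 0.26). An unadjusted p below 0.05 was found for 20 of the 43, against 8.8% of all tested genes in the higher direction. Groups did not overlap for 17 of the 43, all higher in Tg1, against 11.9% of all tested genes in that direction. Of 41 interferon-stimulated genes 0 were DEGs by edgeR, 8 had an unadjusted p below 0.05 and 1 was called by DESeq2, although the log2 fold changes of all 41 were above 0 (median 0.31). The wells of one plasmid differed widely in this list. Its summed level was 26925, 34575 and 24079 CPM in NC replicates 1, 2 and 3 and 29659, 38378 and 39382 CPM in Tg1, so that Tg1 replicate 1 lay below NC replicate 2, and it ran from 19643 to 40222 CPM within WT alone. Of the 41 genes, 3 had groups that did not overlap, all higher in Tg1, where 11.9% of all tested genes did so in that direction.

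Messages made in mitochondria were lower in Tg1 as a sum but gave no DEG. Their summed level was 31152, 31424 and 33006 CPM in the NC libraries and 31098, 28899 and 29934 CPM in the Tg1 libraries, which did not overlap, although Tg1 replicate 1 was close to the lowest NC library. All 13 mitochondrially encoded genes had log2 fold changes below 0 (median -0.13). Groups did not overlap for 7 of them, all lower in Tg1, where 14.8% of all tested genes did so in that direction. ND4L and ND5, subunits of complex I, had log2 fold changes of -0.39 and -0.29 (edgeR adjusted p = 0.121 and 0.204). By edgeR 0 were DEGs, 3 had an unadjusted p below 0.05, and DESeq2 called 1. They have short spans, so their direction was opposite to the gradient of the other short genes. Low sums were not particular to Tg1, as they were 28257 to 30613 CPM in Tg2, 27168 to 29754 in Tg3 and 29106 to 31119 in WT. The median log2 fold change of Tg1 for these genes was -0.11 against WT, 0.11 against Tg2 and 0.07 against Tg3. Ribosomal protein genes had a median of 0.07 over 45 tested, with 0 DEGs by edgeR or DESeq2 and 14 higher at an unadjusted p below 0.05.

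Tg1 was then compared with each other PKD2 plasmid, to see which of the changes set this mutant apart. Against WT, 8 genes were DEGs (0.0692% of those tested), all lower in Tg1. They were DMXL1, PRKAR2A, LRP6, AFF4, PIK3C2A, ITPR2, CCDC186 and one gene without a symbol, and all 7 with a span were longer than the median. DMXL1 differed from WT by -0.29, PRKAR2A by -0.32 and LRP6 by -0.33 on the log2 scale (edgeR adjusted p = 0.0258 for each). The count and its direction rest on single wells. Without WT replicate 2 it was 852, with 492 higher in Tg1 and 360 lower (42.3%). Without any other single library of the pair it was 0, where 996 to 1776 genes kept an unadjusted p below 0.05.

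Against Tg2, 16 genes were DEGs (0.138%), with 14 lower (0.121%) and 2 higher (0.0173%), and against Tg3 71 (0.615%), with 64 lower (0.554%) and 7 higher (0.0606%). DMXL1 was the only named gene that was a DEG against all 4 other plasmids, at -0.34 against Tg2 (edgeR adjusted p = 0.016) and -0.40 against Tg3 (edgeR adjusted p = 0.00243). MICAL2 and PHIP were lower than in Tg2 by -0.34 and -0.37 and lower than in Tg3 by -0.48 and -0.34. LPP, NFAT5, KMT2A and TEAD1 were lower than in Tg3 by -0.94, -0.50, -0.48 and -0.36, and did not pass against Tg2 or WT. Of the genes lower than in Tg3, 51 of 54 with a span were longer than the median, and against Tg2 this held for 13 of 13. The count against Tg2 was 0 without Tg1 replicate 1, Tg1 replicate 2 or Tg2 replicate 1, 3 without Tg2 replicate 2, 80 without Tg1 replicate 3 and 117 without Tg2 replicate 3. Against Tg3 it was 4, 6 and 115 without Tg1 replicates 1, 2 and 3, and 14, 4 and 3 without Tg3 replicates 1, 2 and 3.

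The named genes that rose against NC were not DEGs against WT, Tg2 or Tg3. MYC differed by 0.04 (SE 0.07) from WT, by -0.18 from Tg2 and by 0.01 from Tg3, with edgeR adjusted p of 0.813, 0.173 and 0.952. IER3 differed by -0.04, -0.20 and 0.05, and ADM by 0.18, -0.19 and 0.16. None of the 39 early response genes was a DEG in any of these comparisons, where their median log2 fold changes were -0.04, -0.07 and 0.09. Their summed level was 6998 to 8771 CPM in WT, 7321 to 8338 in Tg2 and 6490 to 7462 in Tg3. WFDC2 was higher in Tg1 than in Tg3 by 0.24 (edgeR adjusted p = 0.0152), under the fold-change threshold.

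**Figure D5:**
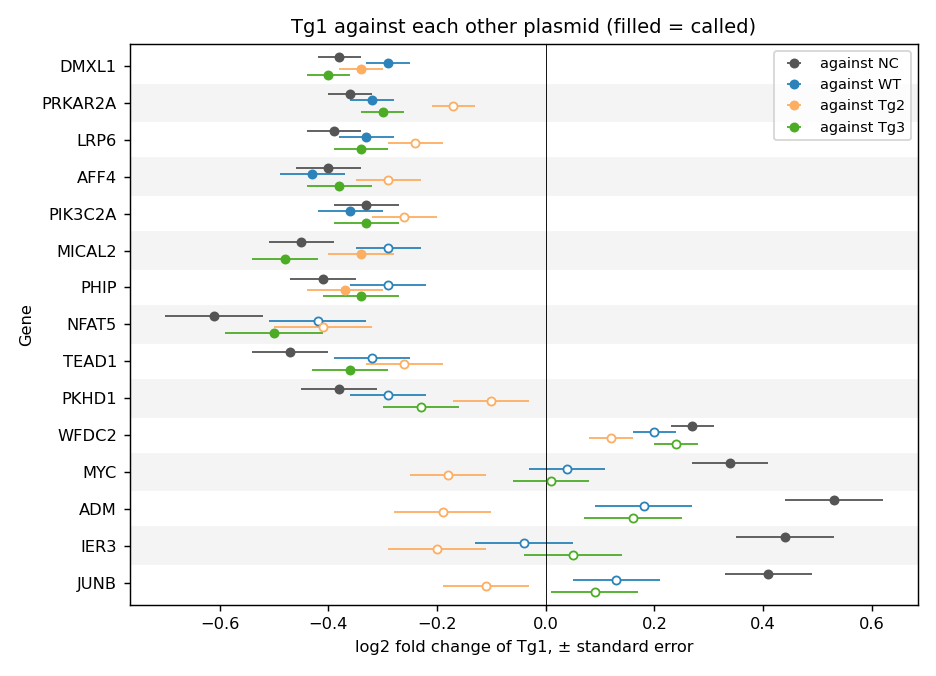
Points are log2 fold changes of Tg1 (x axis) for 15 genes (y axis) against each of the other 4 plasmids, with bars of 1 standard error, filled where the gene was a DEG. DMXL1 is filled in all 4 comparisons, from -0.29 to -0.40, whereas MYC, ADM, IER3 and JUNB are filled against NC only.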

How the data were processed

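The authors quantified transcripts with Salmon 0.14.1 against the pig cDNA set of Ensembl release 98 and deposited raw whole-number counts for each Ensembl gene, with no normalization between libraries; how transcripts were summed to genes is not given in the sources used here. The genome build was likewise not given, and no coordinates are reported. Symbols came from the study's supplementary gene tables (1431 tested genes) and from the reference table (8754), of 11553 tested, and 26 identifiers had different symbols in the tables. Genes with similar transcripts can share reads.

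From the counts, genes whose mean CPM over 15 libraries was at least 2 (99.8% of counts) were fitted with edgeR 4.0.16 in R 4.3.3 (TMM, glmQLFit and glmQLFTest, 1 model of group means, 10 residual degrees of freedom) with Benjamini-Hochberg adjustment over all tested genes. Levels are TMM-normalized CPM. Spans were matched by symbol to RefSeq Sscrofa11.1. For the 26 identifiers with different symbols, the span was looked up under the reference symbol first, while the study's symbol is the name shown. Every pair of replicates of Tg1 and of NC differed by more than counting noise, so no library was merged with another. The script was tested on simulated data.

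Named genes were up to 12 DEGs with the smallest adjusted p and up to 6 with the largest fold change (mean of 5 CPM or more) in each direction, up to 4 members of each list with the smallest p, and MYC, ADM, IER3, PKHD1 and LRP2; other DEGs of a list, and those left by the span offset or called against WT, are named after their values were seen. The comparison, lists and rules were chosen with earlier results of these data known. Alternatives were DESeq2 1.42.0, DESeq2 size factors, upper-quartile scaling, no filter, filterByExpr, glmTreat, no fold-change threshold, a fit of only the groups compared, the replicate number as a block, a gene-span offset and leaving out each library; a fit of only the genes with a span was added after the data were seen. A few genes are not reported here.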

Additional observations from a re-analysis of the deposited data

Results flagged for a closer look

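For 18 of the genes named for the comparison with NC, the difference between Tg1 and another PKD2 plasmid itself passed the edgeR test. Every one was lower in Tg1. Against WT, the log2 fold change was -0.29 for DMXL1, -0.32 for PRKAR2A, -0.33 for LRP6, -0.43 for AFF4, -0.36 for PIK3C2A and -0.31 for ITPR2. Against Tg2, it was -0.34 for DMXL1, -0.34 for MICAL2 and -0.37 for PHIP. Against Tg3, it was -0.40 for DMXL1, -0.30 for PRKAR2A, -0.34 for LRP6, -0.48 for MICAL2, -0.50 for NFAT5, -0.43 for PTAR1, -0.36 for TEAD1, -0.38 for AFF4, -0.94 for LPP, -0.34 for PHIP and -0.48 for KMT2A. The remaining ones against Tg3 were -0.26 for ANLN, -0.27 for TNKS, -0.33 for PIK3C2A, -0.40 for CBL, -0.27 for ITPR2, -0.27 for VPS13C and -0.44 for PTPN14. ANLN, a cytokinesis scaffold, and ITPR2 had not passed the fold-change threshold against NC, at -0.22 and -0.26. These comparisons share the Tg1 libraries. Groups of 3 libraries are too small for a test of single outlying wells.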

How the results depend on the processing

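The count of 138 DEGs against NC was within 1.5 times of its value with DESeq2 size factors, upper-quartile scaling, no filter, filterByExpr and only the groups compared. It was 242 with DESeq2 (59 higher and 183 lower, so 75.6% lower in place of 84.8%), 264 with no fold-change threshold, 20 with the gene-span offset (116 for the same genes without it), and 0 with glmTreat (170 at an unadjusted p below 0.05). The counts against WT, Tg2 and Tg3 were 85, 159 and 138 with DESeq2, 0, 1 and 22 with the offset, 0, 0 and 32 with only the groups compared and 0, 0 and 0 with glmTreat. Beside these counts of 0, unadjusted p was below 0.05 for 1117 genes with the offset against WT, for 1243 and 2209 with only the groups compared against WT and Tg2, and for 106, 149 and 133 with glmTreat. That against WT was 2 with no filter, those against Tg2 were 7 with no filter, 7 with filterByExpr and 4 with upper-quartile scaling, and that against Tg3 was 118 with no fold-change threshold. Leaving out a library gave 16 to 83 against NC, 0 to 852 against WT, 0 to 117 against Tg2 and 3 to 115 against Tg3. No named gene changed direction under any setting, and the offset took the call from 31 of them. The causes were not tested.

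With the replicate number as a block (replicate block), the counts were 246 against NC, 66 against WT, 162 against Tg2 and 108 against Tg3. Deviations of Tg1 and NC libraries with equal replicate numbers correlated at 0.14, 0.269 and -0.297. Their mean was 0.037, against -0.023 where the numbers were unequal. Taken over all groups, the mean was 0.152 for equal and -0.078 for unequal numbers. Correlations of mixed sign from so few libraries cannot settle whether the numbers pair these wells, and the labels do not say. Replicates differed by a chi-square per degree of freedom of 3.14 to 12.3 in Tg1 and 3.66 to 14.9 in NC, where counting noise alone gives about 1. Each well is 1 library, so the spread of wells and that of library preparation cannot be told apart.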
